A study of Mus musculus with 6 samples.

Results

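The genes described here write, read or remove histone and DNA marks, chiefly those of silent chromatin and in part those of active chromatin. They were followed in E0771 cells with reduced lamin A/C. They comprise histone H3 lysine 9 (H3K9) and H4 lysine 20 (H4K20) methyltransferases, HP1 proteins, the subunits of the Polycomb repressive complexes PRC1 and PRC2, histone demethylases, methyltransferases of active chromatin and DNA methyltransferases. A list of 50 gene symbols was matched exactly to the symbols of the count table, and 47 of the 50 were found among its 10520 genes. Cbx3, Rybp and Nsd1 were not analysed here. Of the 47 genes, 43 had enough counts to be tested, among 8969 genes tested in all.

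E0771 is a breast adenocarcinoma line of the C57BL/6 mouse strain. All cells were transduced with lentivirus and selected with puromycin, and they carried either the empty pLKO vector (shControl) or a single shRNA against lamin A/C (shLmna). The knockdown group thus rests on 1 hairpin, which the library titles call shRNA4, and how many separately selected populations it holds is not given in the sources used here. RNA of each group was sequenced in 3 libraries by MARS-seq, a method for the 3′ ends of polyadenylated transcripts. A random barcode, the unique molecular identifier (UMI), was added to every captured molecule, and counts of UMIs are counts of molecules. The comparison asks whether the RNA of these genes differed between cells with normal and with lowered lamin A/C. The labels do not say whether libraries of a group came from separate cultures, so p-values here measure the spread between these libraries, which may be technical.

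In most cell types, heterochromatin lies against the nuclear lamina, the protein mesh under the inner nuclear membrane to which lamin A/C belongs. Methylated H3K9 is bound by HP1 proteins, which compact the chromatin and recruit further methyltransferases. Polycomb silencing uses another mark: PRC2 methylates H3 lysine 27 through EZH1 or EZH2, while PRC1 ubiquitylates histone H2A through RING1 or its paralogue RNF2 (also called RING1B), held by one of several PCGF proteins such as BMI1.

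The libraries held 1846208 to 3242051 UMIs. Lmna itself fell by 1.20 on the log2 scale (SE 0.13, adjusted p = 3.55e-05 by edgeR's quasi-likelihood test), from 873 ± 62.8 to 381 ± 6.34 CPM (SD, n = 3 and 3), so lamin A/C RNA was reduced but still present. CPM is the UMI count of a gene per 1000000 UMIs of its library, with library totals scaled by TMM factors, and fold changes are shLmna over shControl. The epithelial marker Krt8 (516 to 814 UMIs) and the mesenchymal marker Vim (10546 to 17461) were present in all 6 libraries. The epithelial markers Krt18 (7 to 20), Epcam (8 to 46) and Krt7 (4 to 10) were low. So were the mesenchymal markers Zeb1 (21 to 47) and Fn1 (0 to 8), the macrophage marker Cd68 (10 to 34) and the endothelial marker Pecam1 (2 to 7). Of 11 cell type markers analysed, 8 were tested and 1 was called, where 13.7% of all tested genes were called. It was the pericyte marker Pdgfrb, at 10.1 to 12.8 CPM in shControl and 17.99 to 19.1 CPM in shLmna (log2 fold change 0.74, adjusted p = 0.0457 by edgeR's quasi-likelihood test). Summed with Pdgfra, the other fibroblast and pericyte marker analysed, it came to 14.3 to 18.1 CPM in shControl and 23.9 to 24.5 CPM in shLmna, and its part in the results was not tested. The shControl libraries lay at plate positions 13 to 15 and the shLmna libraries at positions 16 to 18, so that position and group cannot be told apart. In bulk RNA, fewer cells expressing a gene and less of its RNA per cell cannot be told apart either.

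Most of the chromatin genes had similar RNA levels in both groups, and 4 were higher in shLmna cells. They were Rnf2 and Bmi1, which encode core subunits of PRC1, Mtf2, which encodes a PRC2 accessory protein, and Kdm1b, which encodes a relative of the histone demethylase LSD1. None of the 43 tested genes fell at an adjusted p below 0.05 in edgeR's quasi-likelihood test, adjusted by Benjamini and Hochberg's method over all tested genes. DESeq2 and limma-voom, run on the same filtered counts, called the same 4 of the 43 genes and none of them lower. Rnf2, Mtf2 and Kdm1b passed that filter only through their shLmna libraries, so for them this is no separate support. At an unadjusted p below 0.05 edgeR's test gave 9 genes higher and 1 lower, the demethylase gene Kdm4a, where 28.4% of all tested genes passed, 15.3% higher and 13% lower. The 4 genes make up 9.30% of the 43, against 13.7% of all tested genes called in either direction, 7.96% called higher and 5.78% called lower. The share of these genes that was called therefore lay near that of genes at large, and the count alone is no result about them. All 4 also passed the study's stricter criteria (an absolute log2 fold change above 1 and a mean normalized count above 5 in addition), which 5.71% of all tested genes did.

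The median log2 fold change of the 43 genes was 0.0040, beside 0.0033 over all tested genes. Of the 43, 22 had a positive and 21 a negative log2 fold change, and the range ran from -0.46 for Kdm4a to 4.14 for Rnf2. The 3 libraries of each group did not overlap for 8 genes on the higher side and 2 on the lower side, while 32.5% of all tested genes had groups without overlap. Among the 39 genes not called, the 95% confidence interval of the log2 fold change lay within 1 of 0 for 34 genes and within 0.5 of 0 for 7, so that for most of them a doubling or halving is outside the interval and smaller shifts are not. Rnf2, Mtf2 and Kdm1b passed the filter on low counts only through their shLmna libraries, so they had to differ in order to be tested at all.

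**Figure D1:**
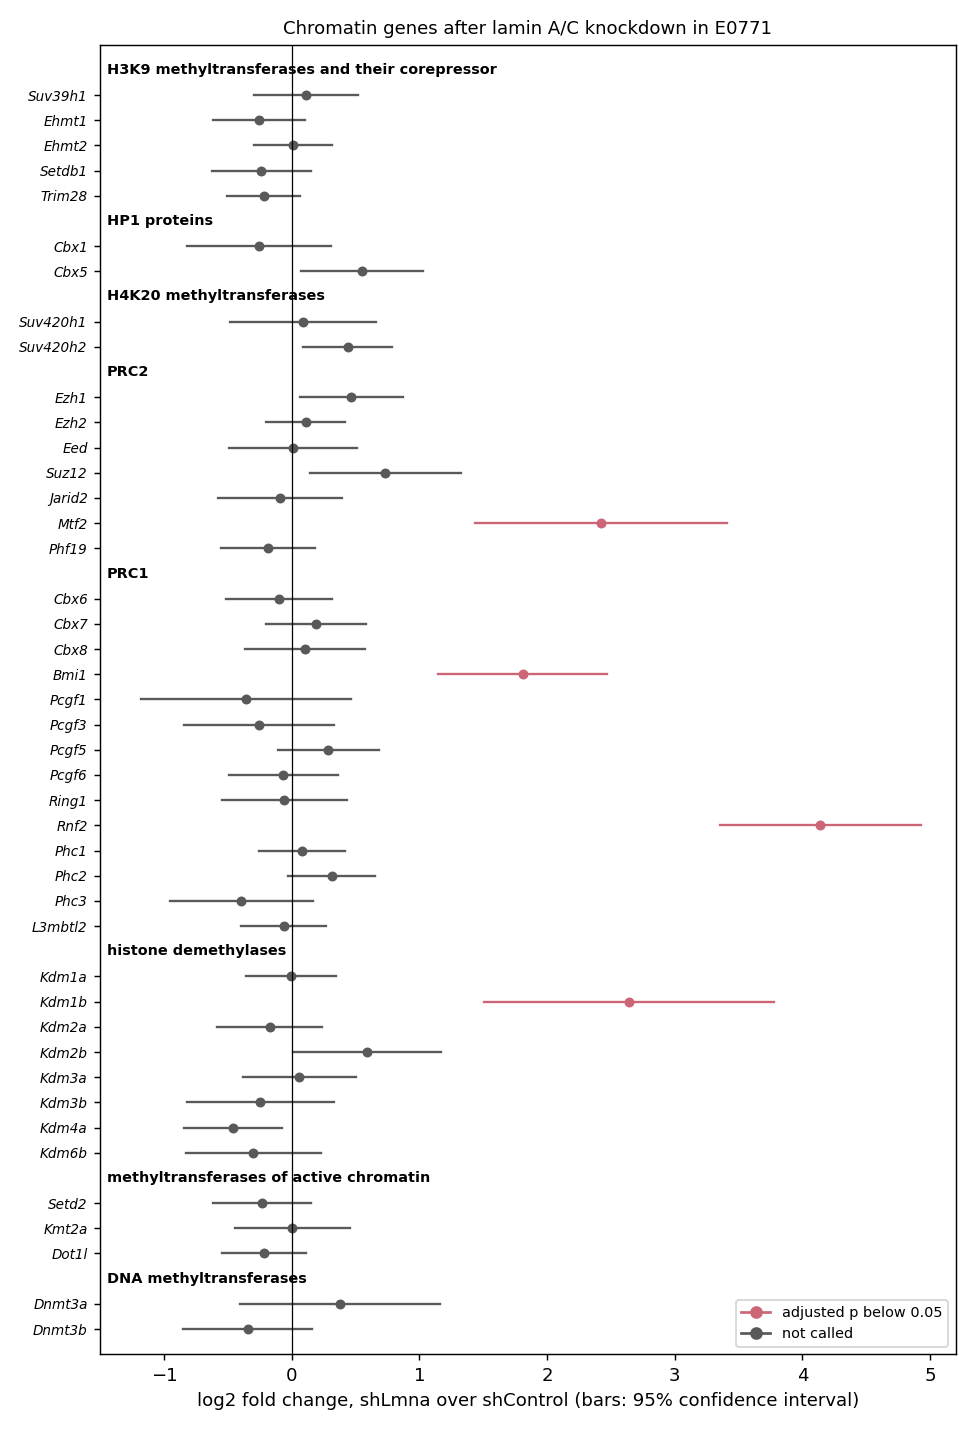
Log2 fold change of the 43 tested genes, shLmna over shControl, with its 95% confidence interval from edgeR's quasi-likelihood fit, grouped by role on the vertical axis. The 4 called genes, Mtf2, Bmi1, Rnf2 and Kdm1b, lie at 1.81 or more, and the other genes lie between -0.46 and 0.73.

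Rnf2, Bmi1, Mtf2 and Kdm1b start from CpG-rich promoters, and their promoter sequences are shown because these genes were called. Ring1, the paralogue of Rnf2 whose RNA was alike in both groups, is shown beside them. Each window holds 250 bases before and 50 bases after the RefSeq transcription start (GRCm38.p6), 5′ to 3′ on the strand of the gene. The windows are chr1:151500942-151501241 on the minus strand for Rnf2, chr2:18676768-18677067 on the plus strand for Bmi1, chr5:108065424-108065723 on the plus strand for Mtf2 (of 2 listed starts, the one nearest the annotated gene start), chr13:47043249-47043548 on the plus strand for Kdm1b and chr17:34024631-34024930 on the minus strand for Ring1. Capitals mark the GC box letters GGGCGG, or CCGCCC on the other strand, and the E-box letters CACGTG, which read the same on both strands. Neighbouring GC boxes can share bases and then form 1 longer run of capitals.
Rnf2: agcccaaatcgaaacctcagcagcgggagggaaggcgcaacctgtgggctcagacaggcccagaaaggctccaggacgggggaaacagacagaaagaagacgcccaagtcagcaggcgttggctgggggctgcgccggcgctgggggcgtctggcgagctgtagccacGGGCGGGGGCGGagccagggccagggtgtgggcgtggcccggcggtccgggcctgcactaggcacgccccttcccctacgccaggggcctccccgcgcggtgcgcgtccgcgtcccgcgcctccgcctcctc
Bmi1: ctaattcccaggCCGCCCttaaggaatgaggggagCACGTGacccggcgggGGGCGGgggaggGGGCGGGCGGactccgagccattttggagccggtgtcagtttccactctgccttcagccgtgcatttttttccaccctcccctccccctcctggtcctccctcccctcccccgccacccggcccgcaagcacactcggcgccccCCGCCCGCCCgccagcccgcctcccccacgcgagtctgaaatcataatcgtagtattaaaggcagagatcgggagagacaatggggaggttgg
Mtf2: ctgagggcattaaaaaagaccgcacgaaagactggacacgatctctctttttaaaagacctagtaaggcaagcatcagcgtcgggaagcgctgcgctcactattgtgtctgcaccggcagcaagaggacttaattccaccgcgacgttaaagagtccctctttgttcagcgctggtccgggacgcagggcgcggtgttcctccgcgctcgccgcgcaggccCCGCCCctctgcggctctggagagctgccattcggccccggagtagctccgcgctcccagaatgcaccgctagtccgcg
Kdm1b: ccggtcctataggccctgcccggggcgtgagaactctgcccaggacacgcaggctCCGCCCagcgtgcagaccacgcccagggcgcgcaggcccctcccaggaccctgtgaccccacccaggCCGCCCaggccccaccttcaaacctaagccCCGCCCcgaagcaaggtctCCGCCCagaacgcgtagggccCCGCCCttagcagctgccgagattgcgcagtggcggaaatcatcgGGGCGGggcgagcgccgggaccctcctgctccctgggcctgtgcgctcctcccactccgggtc
Ring1: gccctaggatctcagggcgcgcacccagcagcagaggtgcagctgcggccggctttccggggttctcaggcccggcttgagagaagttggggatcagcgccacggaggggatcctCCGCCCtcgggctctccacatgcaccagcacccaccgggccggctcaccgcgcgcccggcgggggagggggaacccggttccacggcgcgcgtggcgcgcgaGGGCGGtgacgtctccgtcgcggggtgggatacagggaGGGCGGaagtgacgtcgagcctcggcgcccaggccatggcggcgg
These windows hold 30 CpG dinucleotides for Rnf2, 23 for Bmi1, 30 for Mtf2, 26 for Kdm1b and 37 for Ring1, beside a median of 22 over the 6928 tested genes with a window and 7 over all 27025 genes of the table. The GC box letters occur 2 times for Rnf2, 6 times for Bmi1, 1 time for Mtf2, 6 times for Kdm1b and 3 times for Ring1, so the promoters of called genes and of Ring1 do not part on this count. Promoter windows were found for 41 of the 47 chromatin genes. Where several starts were listed, the one nearest the annotated gene start was used for the chromatin genes. The medians and shares over tested and all genes used the first listed start. The GC box letters stood in 32 of the 41 windows, against 68.3% of the tested genes and 35.9% of all genes. The letters of the CCAAT box (CCAAT or ATTGG) stood in 16 of 41 windows, against 38.8% and 37.9%. The TATA box letters (TATAAA or TTTATA) stood in 0 of 41, against 6.35% and 14.2%. The E-box letters stood in 7 of 41, Bmi1 among them, against 10.9% and 7.24%, and the ETS letters (CCGGAAG or CTTCCGG) in 2 of 41, against 21.4% and 9.12%. Such matches describe the letters of the windows only.

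The H3K9 methylation genes gave no call in either direction. The 5 tested genes of this role, the methyltransferase genes Suv39h1, Ehmt1, Ehmt2 and Setdb1 and the corepressor gene Trim28, had log2 fold changes from -0.26 to 0.11. None had an unadjusted p below 0.05, and DESeq2 and limma-voom called 0 of them as well. Setdb1, whose product deposits trimethyl H3K9 at silenced repeats, had 144, 154 and 76 UMIs in shControl replicates 1 to 3 and 96, 119 and 83 in shLmna. The groups overlapped, and the log2 fold change was -0.24 (SE 0.18, 95% interval -0.63 to 0.15, adjusted p = 0.427 by edgeR's quasi-likelihood test). The counted end of Setdb1 overlaps an exon of Cers2 on the opposite strand by 175 bases, and whether the counting used the strand is not given in the sources used here.

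Suv39h2 encodes 1 of 2 SUV39H enzymes, which trimethylate H3K9 at pericentromeric repeats. It was close to the detection limit, with 8, 6 and 5 UMIs in shControl and 7, 3 and 3 in shLmna, too few to be tested. Its ratio of shLmna over shControl was 0.72 with a 95% counting interval from 0.33 to 1.53, which covers counting error only, so that no difference was detectable at this depth. Its paralogue Suv39h1, with 489 UMIs over the shControl and 485 over the shLmna libraries, had a log2 fold change of 0.11 (95% interval -0.30 to 0.52).

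Trim28, the corepressor that brings SETDB1 to zinc finger repressors, was the most abundant of the chromatin genes. It stood at 592, 631 and 522 CPM in shControl and at 511, 500 and 486 in shLmna. The groups did not overlap, with shLmna lower, but the difference did not pass the adjusted test (log2 fold change -0.22, SE 0.13, adjusted p = 0.302 by edgeR's quasi-likelihood test). Ehmt1 and Ehmt2, which encode the paired GLP and G9a enzymes of H3K9 dimethylation, had log2 fold changes of -0.26 and 0.01. Summed over its 6 genes, the H3K9 role came to 948 ± 94.9 CPM in shControl and 855 ± 24.0 in shLmna (SD, n = 3 and 3), with overlapping groups.

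**Figure D2:**
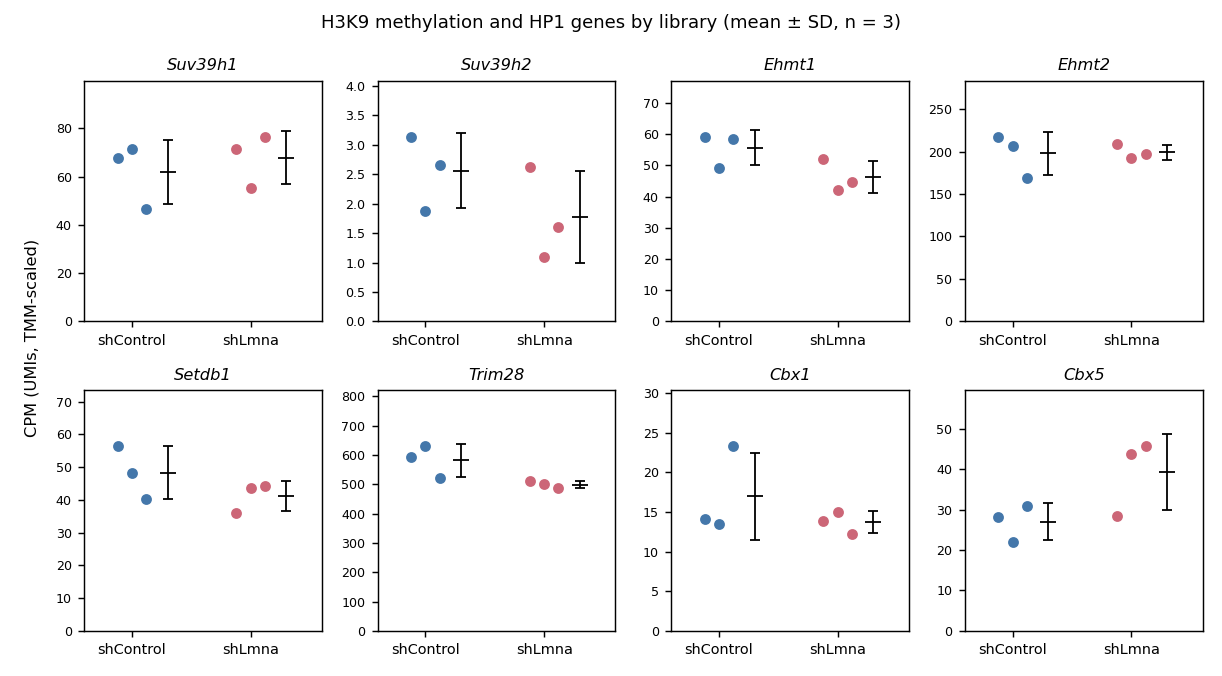
Level (CPM, TMM-scaled UMIs) of 6 H3K9 methylation genes and 2 HP1 genes, each dot 1 library, with the mean ± SD of 3 libraries beside the dots and a vertical axis of its own for each gene. The groups overlap in every panel but that of Trim28, where shLmna libraries (486 to 511) lie below shControl libraries (522 to 631).

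HP1 genes Cbx1 and Cbx5 encode readers of methylated H3K9, HP1β and HP1α. Cbx1 had a log2 fold change of -0.26 (95% interval -0.82 to 0.30) and Cbx5 of 0.55 (95% interval 0.07 to 1.03), and neither passed the adjusted test (adjusted p = 0.562 and 0.118 by edgeR's quasi-likelihood test). Cbx5 had 72, 70 and 58 UMIs in shControl and 76, 119 and 86 in shLmna. Suv420h1 and Suv420h2, which encode the H4K20 methyltransferases that act after HP1 binding, had log2 fold changes of 0.08 and 0.44. For Suv420h2 the shLmna libraries, at 101, 95.5 and 75.5 CPM, all lay above the shControl libraries, at 62.4, 75.4 and 63.1, by a margin that is small for the third library (adjusted p = 0.0934 by edgeR's quasi-likelihood test).

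The catalytic core of PRC2 was not called. Ezh2, its main methyltransferase in dividing cells, had 409, 568 and 384 UMIs in shControl and 470, 561 and 379 in shLmna. The log2 fold change was 0.11 (SE 0.14, 95% interval -0.20 to 0.42, adjusted p = 0.668 by edgeR's quasi-likelihood test), an interval that leaves no room for a doubling. Eed, the subunit that reads the mark PRC2 makes, was at 0.01 (95% interval -0.49 to 0.51). Ezh1, the less active EZH enzyme, had 151, 203 and 72 UMIs in shControl and 213, 212 and 125 in shLmna, which did not overlap once scaled, and did not pass the test (log2 fold change 0.47, adjusted p = 0.118 by edgeR's quasi-likelihood test). Its share of the UMIs of the EZH pair was 23.0% ± 6.28 in shControl and 27.8% ± 3.21 in shLmna.

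Suz12, the scaffold that PRC2 needs to be stable, had 60, 119 and 96 UMIs in shControl and 111, 232 and 105 in shLmna. The highest shControl library and the lowest shLmna library overlapped, at 50.9 and 41.6 CPM. The log2 fold change was 0.73 (SE 0.28, adjusted p = 0.0951 by edgeR's quasi-likelihood test). Leaving out single libraries moved it between 0.40 (without shLmna replicate 2, adjusted p = 0.407) and 0.98 (without shControl replicate 3, adjusted p = 0.0119), by the same test. Only leaving out shControl replicate 3 changed the call. After a correction for GC content, described below, the log2 fold change was 0.09.

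Among the PRC2 accessory genes, Mtf2 was called, and Phf19 and Jarid2 were not. Mtf2 was the 1 gene called among the 7 PRC2 genes tested, or 14.3%, beside 13.7% of all tested genes. It passed the filter on low counts only through its shLmna libraries. MTF2 (PCL2) helps to bring PRC2 to CpG islands. Mtf2 (chromosome 5, 108065674 to 108109004, plus strand) had 2, 4 and 7 UMIs in shControl and 23, 22 and 23 in shLmna, or 0.784, 1.25 and 3.71 against 8.62, 8.08 and 12.2 CPM. All shLmna libraries lay above all shControl libraries, though both groups were low. The log2 fold change was 2.42 (SE 0.46, adjusted p = 0.0033 by edgeR's quasi-likelihood test), and the ratio of the summed UMIs was 5.49 with a counting interval from 3.01 to 10.8. Leaving out 1 library at a time moved the log2 fold change between 2.05 and 3.12, with a highest adjusted p of 0.0474. Phf19, another Polycomb-like gene, was at -0.19 (95% interval -0.55 to 0.18), and Jarid2, which encodes a further PRC2 partner, at -0.09 (95% interval -0.58 to 0.39). From the wider pathway list described below, Phf1, also Polycomb-like, was at 0.67 (95% interval 0.04 to 1.29, adjusted p = 0.149 by edgeR's quasi-likelihood test). Aebp2 of that list was at 0.13 (95% interval -0.37 to 0.63). With Phf1 and Aebp2 left out, Mtf2 made up 0.80% to 4.55% of the UMIs of Mtf2, Phf19 and Jarid2 in the shControl libraries and 9.52% to 13.5% in the shLmna libraries. The sum of these 3 genes was 88.5 ± 8.80 CPM in shControl and 87.1 ± 2.91 in shLmna.

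Of the 14 PRC1 genes tested, 2 were called, Rnf2 and Bmi1, or 14.3%, beside 13.7% of all tested genes. Rnf2 passed the filter on low counts only through its shLmna libraries. Rnf2 (chromosome 1, 151458004 to 151500955, minus strand), whose product is the main H2A ubiquitin ligase of PRC1, had 3 UMIs in each shControl library and 49, 73 and 37 in shLmna. In CPM this was 1.18, 0.938 and 1.59 against 18.4, 26.8 and 19.7, with a wide gap between the groups. The log2 fold change was 4.14 (SE 0.37, adjusted p = 7.49e-06 by edgeR's quasi-likelihood test). As the shControl count is so low, the ratio of the summed UMIs, 18.5, has a wide counting interval, from 9.52 to 41.3. Without any 1 library the log2 fold change was 3.95 to 4.31.

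Ring1 (chromosome 17, 34020792 to 34024680, minus strand), whose product can take the place of RNF2 in the complex, had 40, 53 and 32 UMIs in shControl and 50, 39 and 26 in shLmna. Its log2 fold change was -0.06 (SE 0.23, 95% interval -0.55 to 0.43, adjusted p = 0.900 by edgeR's quasi-likelihood test). The makeup of the pair therefore differed between the groups: Rnf2 gave 6.98%, 5.36% and 8.57% of the UMIs of the pair in the shControl libraries and 49.5%, 65.2% and 58.7% in the shLmna libraries. The sum of the pair was 17.6 ± 0.861 CPM in shControl and 37.2 ± 3.81 in shLmna (SD, n = 3 and 3). Such shares compare captured 3′ ends, which do not scale with transcript length but may be captured unequally from gene to gene.

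Bmi1 (PCGF4, on chromosome 2, 18677018 to 18686629, plus strand) encodes a PCGF subunit that pairs with RNF2 or RING1 in canonical PRC1. It had 25, 86 and 75 UMIs in shControl and 196, 256 and 179 in shLmna, or 9.80, 26.9 and 39.8 against 73.5, 94.0 and 95.2 CPM. The shControl libraries were spread widely, with the first far below the other two, yet the lowest shLmna library stood well above the highest of them. The log2 fold change was 1.81 (SE 0.31, adjusted p = 0.0015 by edgeR's quasi-likelihood test) and ran from 1.40 to 2.20 when single libraries were left out. It is the one called gene with counts far from the detection limit in both groups.

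The other PCGF genes did not follow Bmi1. Pcgf1, Pcgf3, Pcgf5 and Pcgf6, whose products define the non-canonical PRC1 forms, had log2 fold changes of -0.36, -0.26, 0.29 and -0.07, none of them called. Among 5 PCGF genes, with Pcgf2 left out, Bmi1 accounted for 16.5% ± 6.75 of the UMIs in shControl and 40.9% ± 2.70 in shLmna. Pcgf5 had the largest share in shControl, 39.3% ± 1.27, and 32.5% ± 3.39 in shLmna, and the share of Pcgf6 was 29.8% ± 2.36 and then 19.0% ± 2.11. These lower shares go with the rise of Bmi1, since the shares of a library add to 100%.

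**Figure D3:**
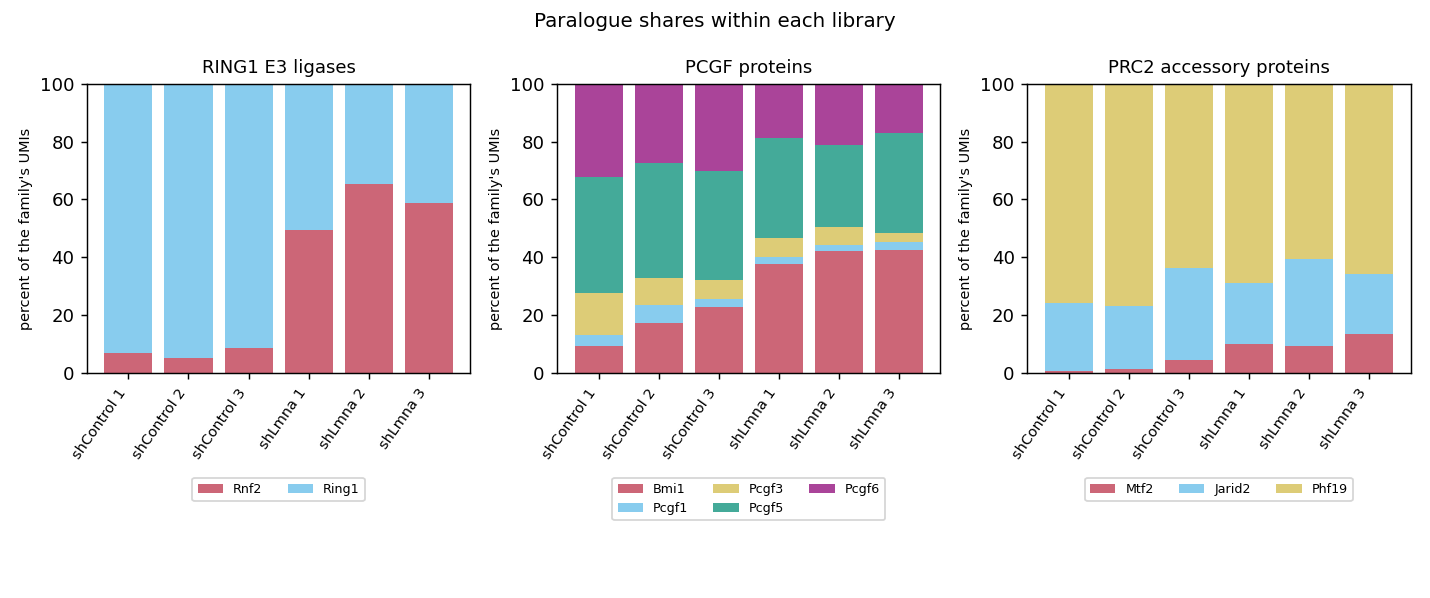
Share of each paralogue in the UMIs of its family, in percent, stacked for each of the 6 libraries: the RING1 ligases on the left, the PCGF genes in the middle and the PRC2 accessory genes on the right. Pcgf2, Phf1 and Aebp2, which belong to the wider pathway list, are not part of these families. Rnf2 takes 5.36% to 8.57% of its pair in shControl and 49.5% to 65.2% in shLmna, Bmi1 takes 9.33% to 22.7% and 37.8% to 42.6%, and Mtf2 takes 0.80% to 4.55% and 9.52% to 13.5%.

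The chromodomain, PHC and other PRC1 genes gave no call. Cbx6, Cbx7 and Cbx8, readers of methylated H3K27, lay at -0.10, 0.19 and 0.11 in log2 fold change, and L3mbtl2 of the PRC1.6 form at -0.06. The PHC genes, whose products let PRC1 polymerise, were at 0.08 for Phc1, 0.31 for Phc2 and -0.39 for Phc3. Phc2 was the most abundant of them, and its shLmna libraries (283.3, 209.3 and 208.5 CPM) all lay above its shControl libraries (208.2, 192.3 and 163.4), by a very small margin for the second and the third, with an adjusted p of 0.215 by edgeR's quasi-likelihood test. Summed over 15 genes, PRC1 RNA came to 711 ± 29.7 CPM in shControl and 842 ± 58.7 in shLmna.

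Cbx2, which encodes a CBX protein that compacts nucleosomes, was too low to be tested, with 1, 2 and 2 UMIs in shControl and 10, 7 and 10 in shLmna. The groups did not overlap, and the ratio of the summed UMIs was 5.67 with a counting interval from 2.15 to 18.8. When no filter on low counts was used, its log2 fold change was 2.43 with an adjusted p of 0.0258 by edgeR's quasi-likelihood test. It had, like Rnf2, a shControl level at which each library counted only a few molecules.

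**Figure D4:**
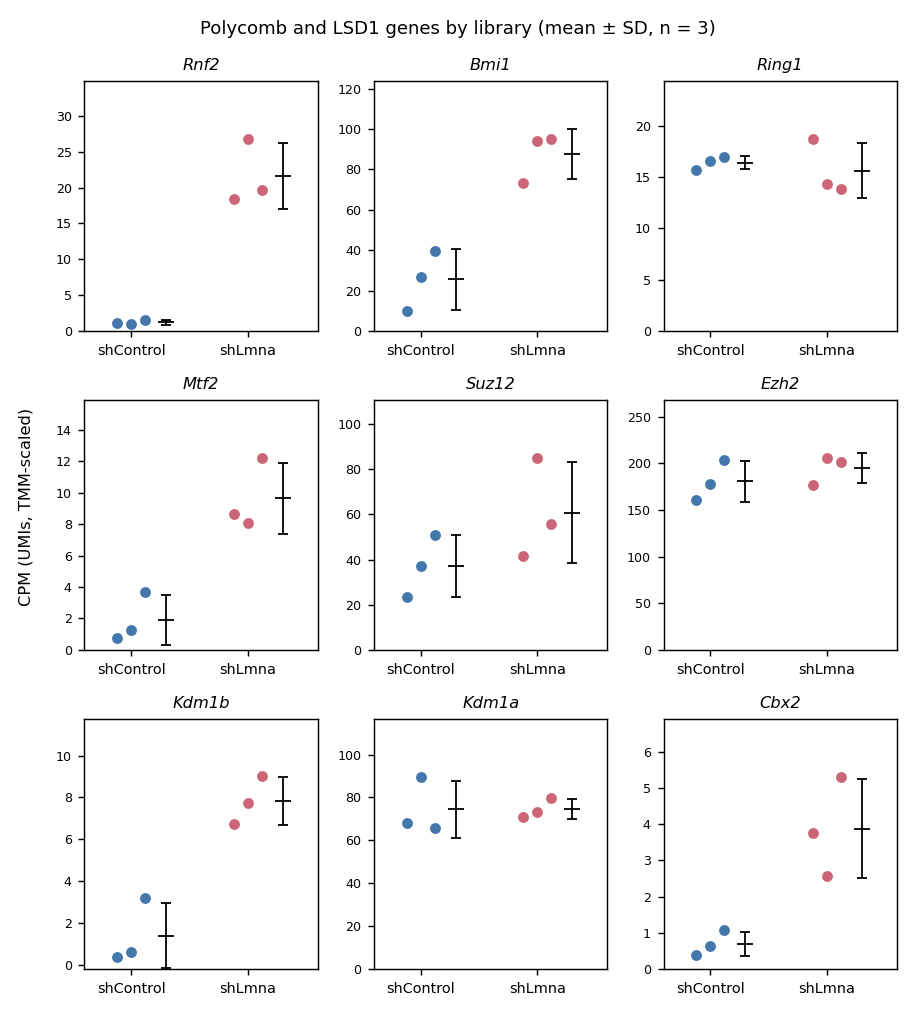
Level (CPM, TMM-scaled UMIs) of 9 Polycomb and LSD1-type demethylase genes, each dot 1 library, with the mean ± SD of 3 libraries beside the dots and a vertical axis of its own for each gene. Rnf2, Bmi1, Mtf2, Kdm1b and Cbx2 show no overlap between the groups, whereas Ring1, Suz12, Ezh2 and Kdm1a do.

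Of the 8 histone demethylase genes tested, 1 was called, Kdm1b, or 12.5%, beside 13.7% of all tested genes. It passed the filter on low counts only through its shLmna libraries. KDM1B (LSD2) removes methyl groups from H3K4 within active genes. Kdm1b (chromosome 13, 47043499 to 47085279, plus strand) had 1, 2 and 6 UMIs in shControl and 18, 21 and 17 in shLmna, and its lowest shLmna library, at 6.75 CPM, stood above its highest shControl library, at 3.18 CPM. The log2 fold change was 2.64 (SE 0.53, adjusted p = 0.0046 by edgeR's quasi-likelihood test), and the ratio of the summed UMIs was 6.53 with a counting interval from 3.21 to 15.02. Leaving out 1 library at a time moved the log2 fold change between 2.20 and 3.77, the highest being without shControl replicate 3, and the call was lost without shControl replicate 2 (2.22, adjusted p = 0.0645). Its paralogue Kdm1a (LSD1), with 584 and 538 UMIs over the shControl and shLmna libraries, was at -0.01 (95% interval -0.36 to 0.34), and Kdm1b made up 1.96% ± 2.30 of the pair in shControl and 9.47% ± 0.745 in shLmna.

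The counted end of Kdm1b overlaps an exon of Dek, which encodes an abundant chromatin protein, on the opposite strand by 605 bases. Dek had 3, 3 and 13 UMIs in shControl and 121, 174 and 136 in shLmna, with a log2 fold change of 4.53 (SE 0.42, adjusted p = 9.06e-06 by edgeR's quasi-likelihood test). The sources used here do not say whether UMIs were counted by strand, so reads of Dek and of Kdm1b cannot be told apart, and the part of Dek in the Kdm1b counts was not tested.

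Kdm4a, which encodes an H3K9 and H3K36 demethylase, had the lowest log2 fold change of all tested chromatin genes, -0.46 (SE 0.18, adjusted p = 0.107 by edgeR's quasi-likelihood test). It had 220, 232 and 112 UMIs in shControl and 164, 140 and 86 in shLmna. Leaving out single libraries moved the log2 fold change between -0.60 (without shLmna replicate 1, adjusted p = 0.0997) and -0.33 (without shControl replicate 1, adjusted p = 0.347). Kdm4a was called only without shControl replicate 3 (-0.59, adjusted p = 0.0311 by edgeR's quasi-likelihood test). Kdm2b, whose product brings a PRC1 form to CpG islands, was at 0.59 (adjusted p = 0.168 by edgeR's quasi-likelihood test) on 59 UMIs in shControl and 85 in shLmna in all. Its counted end overlaps an exon of Rnf34 on the opposite strand by 727 bases. Kdm2a, Kdm3a, Kdm3b and Kdm6b were at -0.17, 0.06, -0.25 and -0.30. Kdm5a and Kdm5b, the H3K4 demethylase genes, had 3 to 11 UMIs per library and were not tested, with ratios of 0.99 and 0.82.

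The writers of active marks were not called. Setd2, which encodes the enzyme of H3K36 trimethylation, was at -0.23, and Kmt2a (MLL1), an H3K4 methyltransferase, at 0.00. Dot1l, the H3K79 methyltransferase, was at -0.22 (95% interval -0.55 to 0.11), with 58.8, 62.5 and 60.0 CPM in shControl, all above the 50.2, 51.0 and 54.8 in shLmna (adjusted p = 0.381 by edgeR's quasi-likelihood test). The de novo DNA methyltransferase genes Dnmt3a and Dnmt3b were at 0.38 (95% interval -0.41 to 1.16) and -0.34 (95% interval -0.85 to 0.16). Dnmt3a had 8 to 24 UMIs per library, so that a doubling lies inside its interval.

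The 4 called genes share a property that their choice did not use: their counted ends are poor in G and C. Over the last 1000 transcript bases, GC content was 30.8% for Mtf2, 32.4% for Bmi1, 32.9% for Rnf2 and 33.4% for Kdm1b, while the 39 genes not called ran from 32.3% to 59.2% with a median of 46.4%, and the median of all tested genes was 47.3%. This is a description with no test, since 3 of the 4 were tested only because of their shLmna counts. Over the whole table, 473 tested genes had a GC content up to 35%, and 24.3% of them were called higher, with a median log2 fold change of 0.41. The 5 chromatin genes in that range are the 4 called genes and Suz12. Of the 1913 tested genes between 45% and 50%, 5.18% were called higher, with a median of -0.04. The promoters of the same 4 genes are rich in G and C, at 60.7% to 72.7%. The rest of their transcripts was not measured.

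With a loess correction that removed the trend with GC content in each library, the log2 fold changes were 3.53 for Rnf2 (adjusted p = 1.12e-05), 2.08 for Kdm1b (adjusted p = 0.0093), 1.71 for Mtf2 (adjusted p = 0.0133) and 1.21 for Bmi1 (adjusted p = 0.0022), by edgeR's quasi-likelihood test. All 4 stayed called and were smaller, whereas the change of Suz12 went from 0.73 to 0.09. The corrected fit used the same filter on low counts, which Rnf2, Mtf2 and Kdm1b passed only through their shLmna libraries. For these genes the calls after the correction are therefore no separate support. Over all tested genes the correction turned 714 calls higher and 518 lower into 722 higher and 775 lower.

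**Figure D5:**
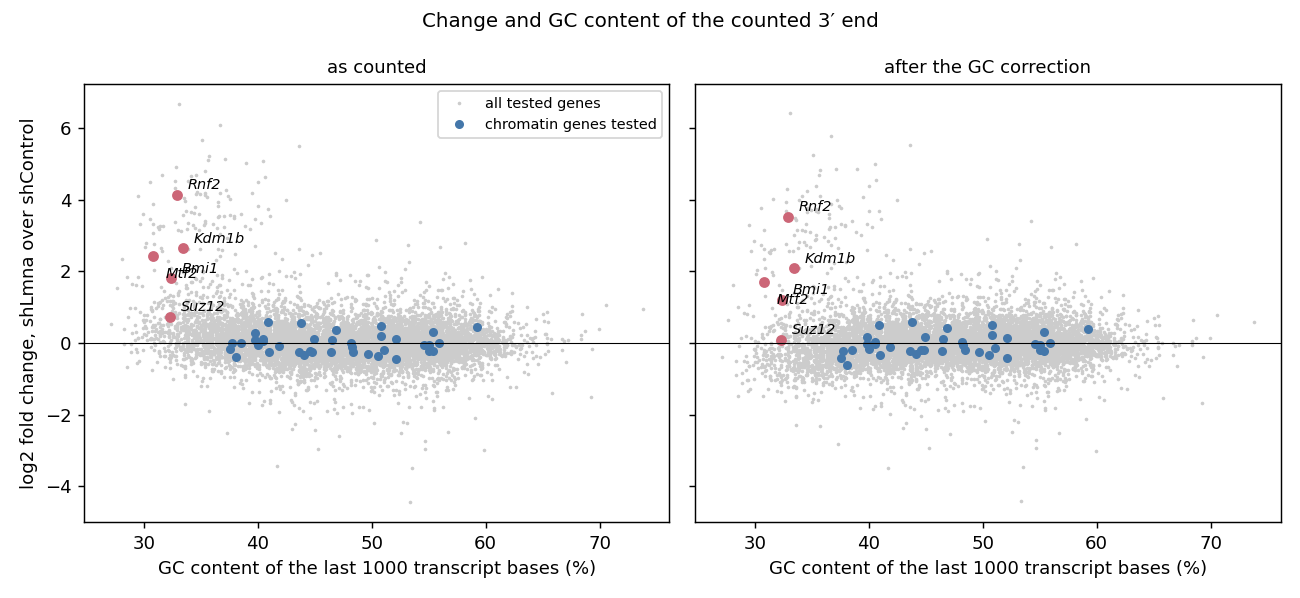
Log2 fold change, shLmna over shControl, against the GC content in percent of the last 1000 transcript bases, as counted on the left and after the GC correction on the right, with all tested genes in grey, chromatin genes in blue and 5 named ones in red. Rnf2, Kdm1b, Mtf2 and Bmi1 stay above 1 in both panels, and Suz12 moves from 0.73 to 0.09.

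Other genes of the same pathways were taken from a list of 108, of which 82 were tested. Of the 82, 6 passed the adjusted test, 4 higher and 2 lower, or 7.32%, beside 13.7% of all tested genes. The median log2 fold change was -0.08. By role, 3 of 20 heterochromatin factors and 1 of 17 Polycomb factors were higher, 2 of 31 histone methyltransferase genes were lower, and 0 of 14 histone demethylase genes were called, 5 of which had an unadjusted p below 0.05, beside 28.4% of all tested genes.

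The genes of that list that passed the stricter criteria were Hells and Zfp644. Hells, a chromatin remodeller needed for DNA methylation of repeats, had 3, 3 and 6 UMIs in shControl and 64, 67 and 72 in shLmna, a log2 fold change of 4.12 (SE 0.39). Zfp644, a zinc finger partner of the G9a and GLP enzymes, had 2, 6 and 5 UMIs and then 11, 25 and 16, a log2 fold change of 2.04 (SE 0.48). Both, like Rnf2, passed the filter on low counts only through their shLmna libraries, so they had to differ in order to be tested. The GC content of their counted ends was 35.4% and 30.9%.

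Further called genes of the list, named after their values were seen, changed by less. Rbbp7, which encodes a histone chaperone of PRC2, was at 0.89. Prmt5 and Prmt7, which encode arginine methyltransferases, fell by 0.80 and 0.48 on the log2 scale, Prmt5 from 712 ± 39.6 to 408 ± 61.7 CPM (SD, n = 3 and 3). The maintenance methyltransferase Dnmt1 and its partner Uhrf1 were at 0.03 (95% interval -0.26 to 0.32) and -0.05 (95% interval -0.40 to 0.30).

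Several chromatin genes, Ezh2 among them, are expressed more in cycling cells, so 19 proliferation genes were set beside them. Their summed level was 3449 to 3960 CPM in shControl and 3611 to 3762 in shLmna, with the shLmna range inside that of shControl. Of the 19, 1 was called, or 5.26%, beside 13.7% of all tested genes. It was the cyclin gene Ccna2 (log2 fold change 0.82, SE 0.16, adjusted p = 0.0032 by edgeR's quasi-likelihood test). The replication helicase genes Mcm3, Mcm5 and Mcm6 were lower at an unadjusted p below 0.05 only, a threshold that 13% of all tested genes passed as lower.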

How the data were processed

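Poly(A) RNA of 3 shControl and 3 shLmna libraries was sequenced by MARS-seq. The authors deposited UMI counts per gene, made, per the submitters' processing notes and the study's methods, with Cutadapt, STAR 2.4.2a (mm10) and HTSeq on the last 1000 bases of RefSeq genes plus 100 bases downstream. The counting strand is not given in the sources used here. Every gene of the table reaches 6 UMIs in some library. Deposited log2 values after ComBat and the authors' own DESeq2 comparison (fold changes and p-values) were not used.

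Counts were fitted on the whole table with edgeR 4.0.16 in R 4.3.3: filterByExpr with a minimum count of 10, TMM scaling, group as the only term, quasi-likelihood test and Benjamini-Hochberg adjustment, with a threshold of 0.05. DESeq2 1.42.0 and limma-voom (limma 3.58.1), RLE and upper-quartile scaling, other filters, thinned counts, a replicate block and leaving out each library were alternatives. Scripts were tested on simulated data. The lowest p an exact permutation of 3 and 3 libraries allows is 0.1, so single genes were tested by models across all genes. Counting intervals are exact 95% binomial intervals and cover counting error only. Libraries of a group differed beyond sampling noise (chi-square per degree of freedom 5.11 to 8.28), so they were not pooled and each was entered as 1 sample. This does not show that they came from separate cultures. The same-numbered libraries were not paired, since their deviations correlated at 0.35, -0.11 and 0.0052.

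GC content and coordinates came from GENCODE M21 (GRCm38) transcripts, matched to 10467 of 10520 genes, 322 through an older symbol. The planned GC correction from a genome could not be run as written, and a loess correction (span 0.3, degree 2) on transcript sequence was used instead, chosen after seeing the data. The chromatin genes and gene lists were chosen with earlier results of these data known. Named in full are chromatin genes with an adjusted p below 0.05, Suv39h2, Setdb1 and Ezh2, genes of the pathway list past the study's criteria, Lmna, and genes that overlap a named gene's counted end. Other genes are given by role, and Suz12, Cbx2, Trim28, Ring1, Phf1, Aebp2 and Bmi1's relatives in more detail after their values were seen. Some results are not reported here.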

Additional observations from a re-analysis of the deposited data

How the results depend on the processing

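Of the 16 alternatives, 15 left between 3 and 6 chromatin genes called. The exception was a mean count of at least 50, which tested only 29 of them and called 1, Bmi1, also by the study's criteria, since Rnf2, Mtf2 and Kdm1b fall below it. That filter gave 779 calls over all genes, 13.3% of the 5846 it tested, against 1232, or 13.7%. Leaving out single libraries gave 540 to 1580 calls, or 5.89% to 17.2% of all tested genes. For the chromatin genes leaving out single libraries gave 3 to 6 calls. As over all genes, the fewest came without shControl replicate 2 and the most without shControl replicate 3. Without shControl replicate 2, Kdm1b was at 2.22 with an adjusted p of 0.0645, and without shControl replicate 3, Suz12 and Kdm4a were added. The median log2 fold change of the chromatin genes lay between -0.075 and 0.018, on either side of 0 (-0.0041 with DESeq2 and -0.041 with the GC correction).

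The pathway genes, 6 called, came to 13 with the GC correction and 13 with the GC correction and the replicate block together (5 higher and 8 lower in both, against 4 higher and 2 lower), and to 2 to 9 without single libraries, with 3 higher and 6 lower without shControl replicate 3. It was 2 without shControl replicate 2 and without shLmna replicate 3, and 3 without shControl replicate 1 and without shLmna replicate 2. The proliferation genes, 1 called, came to 3 with the GC correction, 3 with that and the block, and 1 to 3 without single libraries, with 3 when shControl replicate 3 was left out. Each of these counts of 3 is 1 higher and 2 lower. With the GC correction the calls over all genes turned from 714 higher and 518 lower to 722 and 775. Of all tested genes 13.7% were called in the main fit, 16.7% with the GC correction and 15.5% with that and the block. Without single libraries it was 5.89% to 17.2%, so the counts of both lists alone are no result about them. The cause of these moves was not tested.

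With the replicate block, 5 chromatin genes were called, the added one being Suz12 (log2 fold change 0.74, adjusted p = 0.0292 by edgeR's quasi-likelihood test). In all, 1350 genes were called, or 15.1% of those tested. With the GC correction and the block, Suz12 was at 0.087 and Ezh1 was called (0.52, adjusted p = 0.0392). Since the labels do not say that a number marks a shared culture or day, the block is not used elsewhere. A library was most like the one of its own number for number 1 only. Depth limits the chromatin genes with under about 10 UMIs per library in shControl. None of the called genes given in full changed sign.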
